A study of Mus musculus with 8 samples.

Results

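Haemoglobin and blood cell genes were examined in cortex and hippocampus of mice lacking Tet1 (KO) and of wild-type mice (WT), to judge how much blood was left in each tissue sample. The genes are Hba-a1, Hbb-b1, Alas2, S100a8, S100a9, Ngp and Camp, 7 of the 23688 symbols on the array, and every probe carrying 1 of these symbols was taken, 8 in all. Tet1 encodes a dioxygenase that oxidises 5-methylcytosine in DNA. The 4 groups were WT cortex, KO cortex, WT hippocampus and KO hippocampus, with 2 samples each, all from naive mice whose background is labelled 129 C57BL6. Each of the 4 arrays carried 2 samples of the same tissue and number, WT in Cy3 (green) and KO in Cy5 (red). No dyes were swapped, so in a ratio of KO over WT the genotype and the dye cannot be told apart. The labels give neither the allele, nor age or sex, nor whether replicates are separate animals, so every p-value below reflects the scatter of these samples alone, and that scatter may be technical.

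Red blood cells carry haemoglobin, a tetramer of alpha and beta globin chains around haem. Mature red cells have no nucleus, but young ones (reticulocytes) still hold globin mRNA, which therefore travels with blood into any tissue that is not cleared of it. Neutrophils, phagocytic white cells of blood, are packed with the calcium-binding proteins S100A8 and S100A9 and with granule proteins, several of which are made only while the cell matures in bone marrow. In bulk tissue, fewer cells of a type and less RNA per cell cannot be told apart.

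The probes are 60 bases long and decide which transcripts a spot can report. The first set shows the probes whose values carry the results, written 5′ to 3′ in lower case, the whole probe for Hba-a1, Hbb-b2 and S100a8 and the first 30 bases for Hbb-b1 and S100a9. In the mm9 assembly, per the array files, the Hba-a1 probe lies at chr11:32183955-32184014 on the plus strand and the Hbb-b1 probe at chr7:110961105-110961164 on the minus strand. The S100a8 probe lies at chr3:90473778-90473837 on the plus strand and the S100a9 probe at chr3:90496573-90496632 on the minus strand, next to each other in the S100 gene cluster. The Hbb-b2 probe is listed as unmapped on mm9. Exon and UTR annotation of mm9 was not used here.
Hba-a1 probe: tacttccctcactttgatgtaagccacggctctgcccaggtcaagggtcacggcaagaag
Hbb-b1 probe: ttttctgctattgtctatgcacaaaggtta
Hbb-b2 probe: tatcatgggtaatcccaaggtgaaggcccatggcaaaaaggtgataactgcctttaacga
S100a8 probe: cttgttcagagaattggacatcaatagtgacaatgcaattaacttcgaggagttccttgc
S100a9 probe: gtctaaagggaatggcttactcaatggcct

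The array names follow older RefSeq records. The accessions of all 7 members matched the RefSeq table of GRCm38.p6. The accession of the Hbb-b1 probe belongs there to Hbb-bt, 1 of the pair of adult beta globin genes of the C57BL/6 haplotype, whereas Hbb-b1 and Hbb-b2 are the adult beta globin genes of another haplotype found among inbred strains. The array name Hbb-b1 is kept below. The other 6 members have the same symbol in both.

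The remaining probes lie at chrX:147004993-147005052 (Alas2, plus strand), at chr9:110324266-110324814 (Ngp, plus strand) and at chr9:109749911-109749970 and chr9:109749901-109749950 (Camp, minus strand). The 60 bases of the Ngp probe span 549 positions of the genome, so the probe crosses an exon junction. The sequences of the 2 Camp probes overlap by 50 bases and differ at 2 of them. The position listed for A_55_P2158102 spans 50 bases, fewer than the 60 of the probe. Stretches of 30 bases from the start of the overlap are shown, with the differing bases in capitals.
Camp, probe A_55_P2039699: cagccAgagTagtaggcctgccttggcctg
Camp, probe A_55_P2158102: cagccGgagCagtaggcctgccttggcctg
Counted from 1 at the 5′ end of the stretch, with the base of A_55_P2039699 first, the differences are A6G and T10C.

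Before the levels, the samples need a short description. All 4 arrays lay on 1 slide from 1 scan. The Cy3 channel, which holds WT, had 49.7% to 51.7% of spots well above background and the Cy5 channel, which holds KO, 66.6% to 67.2%, so dim genes were measured better in KO. Saturation was marked at no spot. Of all genes, 16781 were bright enough to test. The brightest Tet1 probe was 0.88-fold in KO over WT in the mean of both tissues (log2 difference -0.18 ± 0.05 SE, adjusted p = 0.0812, limma). Another Tet1 probe had a mean log2 ratio of -0.22. A further one, well above background in KO samples alone, had 0.21. With the allele not given it is not known whether any of these probes lies in the deleted part. All 13 neuron markers on the array were well above background in every sample. Choroid plexus markers, whose tissue lines the brain ventricles and can stay attached at dissection, varied widely. The log2 of their summed levels was 18.7 in WT hippocampus replicate 2 against 14.9 to 15.5 in KO hippocampus. Of their 17 genes, 17 were below 0 on hippocampus array 2, with a median log2 ratio of -2.77, and 17 were above 0 on both cortex arrays. That array also carries the lowest globin ratios given below, and the part of tissue carried along at dissection in the blood gene values was not tested.

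Hba-a1 and Hbb-b1 were well above background in all 8 samples, and their levels spread more widely over the KO samples than over WT. Hba-a1, an alpha globin, had log2 levels of 10.72 and 10.61 in WT cortex replicates 1 and 2, 11.66 and 11.06 in KO cortex, 10.45 and 10.36 in WT hippocampus, and 10.98 and 9.72 in KO hippocampus. The 4 WT samples lay within 1.28-fold of each other, while the 4 KO samples spanned 3.83-fold. KO cortex replicate 1 was the highest of the 8 samples and KO hippocampus replicate 2 the lowest. Both KO cortex samples lay above both WT cortex samples, and in hippocampus the KO samples lay on either side of WT.

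Hbb-b1, the beta globin probe, gave the same order at both ends. Its log2 levels were 9.62 and 9.70 in WT cortex, 10.59 and 9.91 in KO cortex, 9.49 and 9.16 in WT hippocampus, and 10.002 and 8.63 in KO hippocampus. The range was 1.46-fold over the WT samples and 3.89-fold over the KO samples. KO hippocampus replicate 1 was 2.59-fold above replicate 2 for Hbb-b1 and 2.40-fold above it for Hba-a1, gaps larger than those of 99.8% and 99.7% of the genes tested in that group. In KO cortex, replicate 1 was 1.60-fold above replicate 2 for Hbb-b1 and 1.51-fold for Hba-a1. In WT the Hba-a1 replicates differed by 1.08-fold in cortex and 1.06-fold in hippocampus. On the log2 scale these gaps were 0.11 and 0.086, against all-gene median absolute gaps of 0.10 and 0.12.

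**Figure D1:**
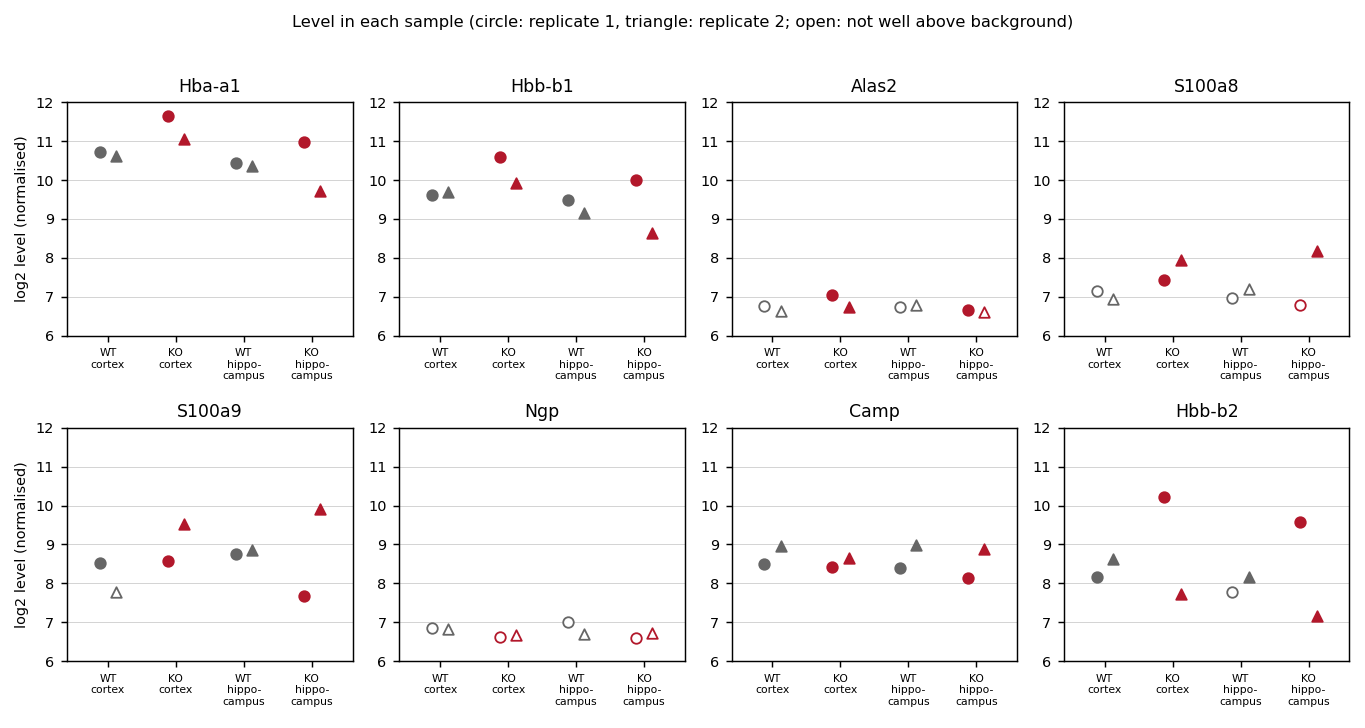
Normalised log2 level (y axis) of the 7 genes and of Hbb-b2 in the 4 groups (x axis); circles are replicate 1, triangles replicate 2, and open symbols are spots not well above background. Hba-a1 and Hbb-b1 are highest in KO cortex replicate 1 and lowest in KO hippocampus replicate 2, S100a9 is highest in KO hippocampus replicate 2, and Ngp is open in all 8 samples.

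Hba-a2 and Hbb-b2, further adult globin genes by the array names, were chosen for description after their values were seen. Hba-a2, a near copy of Hba-a1 whose transcripts the probes may not fully separate, had log2 levels of 11.52 and 11.50 in WT cortex, 12.65 and 12.14 in KO cortex, 11.49 and 11.30 in WT hippocampus, and 12.10 and 10.87 in KO hippocampus. It was thus highest and lowest in the same samples as Hba-a1. Hbb-b2 was also highest in KO cortex replicate 1 and lowest in KO hippocampus replicate 2. Its log2 levels were 8.15 and 8.63 in WT cortex, 10.21 and 7.73 in KO cortex, 7.77 and 8.15 in WT hippocampus, and 9.57 and 7.17 in KO hippocampus, where WT hippocampus replicate 1 was not well above background. In both tissues KO replicate 1 stood far above KO replicate 2, by 5.57-fold in cortex and 5.30-fold in hippocampus, and WT lay between them. These gaps exceeded those of 99.98% of genes in KO cortex and 99.96% in KO hippocampus. Hbb-b2 belongs to the other haplotype named above, and its probe is unmapped on mm9. The labels do not give the beta globin haplotype of the mice, and its part in these gaps was not tested.

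Alas2, the erythroid form of 5-aminolevulinate synthase that starts haem synthesis in red cell precursors, was close to background. Its log2 levels were 6.75 and 6.63 in WT cortex, 7.04 and 6.74 in KO cortex, 6.74 and 6.78 in WT hippocampus, and 6.65 and 6.61 in KO hippocampus. It was well above background only in both KO cortex samples and KO hippocampus replicate 1. The lowest level of any probe well above background was 7.49 to 7.57 in WT and 6.37 to 6.62 in KO. No WT spot at the Alas2 levels was thus marked as well above background, and the marks cannot be compared between genotypes. The median log2 level of the negative controls was 6.53 to 6.57 in WT and 6.39 to 6.41 in KO, so the Alas2 levels give little room for a difference. The embryonic globins Hba-x, Hbb-bh1 and Hbb-y and the haemoglobin chaperone Ahsp were well above background in none of the 8 samples.

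The neutrophil genes S100a8 and S100a9, whose products form the heterodimer calprotectin, varied across samples in another order than the globins. S100a9 had log2 levels of 8.52 and 7.78 in WT cortex, 8.57 and 9.52 in KO cortex, 8.75 and 8.86 in WT hippocampus, and 7.68 and 9.91 in KO hippocampus. Within KO, replicate 2 was the higher sample in both tissues, by 4.70-fold in hippocampus and 1.93-fold in cortex. KO hippocampus held both the highest and the lowest S100a9 level of the 8 samples, with WT hippocampus between them. WT cortex replicate 2 was the single sample not well above background.

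S100a8 had log2 levels of 7.14 and 6.94 in WT cortex, 7.44 and 7.93 in KO cortex, 6.98 and 7.19 in WT hippocampus, and 6.79 and 8.18 in KO hippocampus. It was well above background in 3 samples, both of KO cortex and KO hippocampus replicate 2, and in none of WT. S100a8 thus entered the tests only through KO cortex, the group with its highest mean level, and its tests below support nothing. Lcn2, which encodes the neutrophil granule protein lipocalin 2 and was chosen after its values were seen, had log2 levels of 7.43 and 8.65 in KO cortex and 7.38 and 8.55 in KO hippocampus, replicate 2 the higher. In WT it was well above background in no sample.

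Camp, which encodes the cathelicidin antimicrobial peptide of neutrophil granules, was measured in all 8 samples and varied little with genotype. By the brighter probe its log2 levels were 8.49 and 8.96 in WT cortex, 8.42 and 8.66 in KO cortex, 8.40 and 8.99 in WT hippocampus, and 8.13 and 8.87 in KO hippocampus. By the other probe they were 8.24 and 8.64, 8.26 and 8.52, 8.201 and 8.78, and 8.06 and 8.73 in the same order. Replicate 2 was above replicate 1 in all 4 groups by both probes, by 1.18-fold in KO cortex to 1.68-fold in KO hippocampus for the brighter one. Ngp, the neutrophilic granule protein, had log2 levels of 6.71 to 6.99 in WT and 6.60 to 6.71 in KO. It was well above background in none of the 8 samples and was therefore not tested, so 6 of the 7 genes entered the tests.

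The question of the design is what differs between KO and WT in each tissue. In cortex, no member of the 6 tested passed an adjusted p of 0.05 (limma on the log ratios, Benjamini-Hochberg over all genes), against 10 of all 16781 genes (0.0596%). At an unadjusted p under 0.05 stood 1 of the 6, against 21.1% of all genes. Hba-a1 was 1.62-fold in KO over WT (log2 difference 0.70 ± 0.30 SE, n = 2 arrays, adjusted p = 0.278, limma). Hbb-b1 was 1.51-fold (0.59 ± 0.31, adjusted p = 0.340, limma). The 2 array ratios behind them were 0.94 and 0.45 for Hba-a1 and 0.97 and 0.21 for Hbb-b1, all above 0. S100a9 gave 0.06 and 1.74, a mean of 0.90 ± 0.63 on the log2 scale (adjusted p = 0.460, limma). This mean rests almost wholly on array 2, where the WT cortex spot was not well above background. S100a8 gave 0.30 and 0.99 (0.65 ± 0.32, adjusted p = 0.328, limma), but -0.23 with median centring in place of loess, where Alas2 was at -1.17. Neither WT cortex spot of S100a8 was well above background, and KO cortex replicate 1 (7.44) lay below the lowest WT level that was well above background on its array (7.49), so no lower bound on the difference is given.

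For 4 of the 6 members tested in cortex, Hba-a1, Hbb-b1, S100a8 and S100a9, both KO levels lay above both WT levels, and such a pattern held for 33.5% of all genes tested. S100a8 entered the tests only through KO cortex, so its part in this count supports nothing. For S100a9, WT cortex replicate 2 was not well above background. No member had both KO levels below WT, against 22.3% of all genes. Alas2 was the member with the unadjusted p under 0.05 in cortex (0.20 ± 0.08, adjusted p = 0.235, limma). It was well above background in no WT sample and entered the tests only through KO cortex, where it was highest, so this p supports nothing.

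In hippocampus the mean globin ratios lay near 0, with the 2 arrays on either side of it. None of the 6 members passed, against 3 of all genes (0.0179%), and none had an unadjusted p under 0.05, against 23.7% of genes. Hba-a1 gave log2 ratios of 0.54 and -0.64 (mean -0.05 ± 0.30, adjusted p = 0.933, limma) and Hbb-b1 0.51 and -0.53 (mean -0.01 ± 0.31, adjusted p = 0.987, limma). S100a9 gave -1.07 and 1.05, the reverse order of the globins, with a mean of -0.01 ± 0.63. Without hippocampus replicate 1 the S100a9 difference was 1.05 and without replicate 2 it was -1.07. The Hba-a1 difference was -0.64 and 0.54 in the same 2 cases. The 95% intervals were -0.85 to 0.75 for Hba-a1 and -1.68 to 1.66 for S100a9, so these arrays cannot separate no difference from a several-fold one in S100a9. Both KO levels lay below both WT levels for Alas2 alone, against 21.1% of genes, and both above for no member, against 29.8%. In hippocampus Alas2 was well above background in no WT sample and in 1 KO sample, so this order supports nothing.

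**Figure D2:**
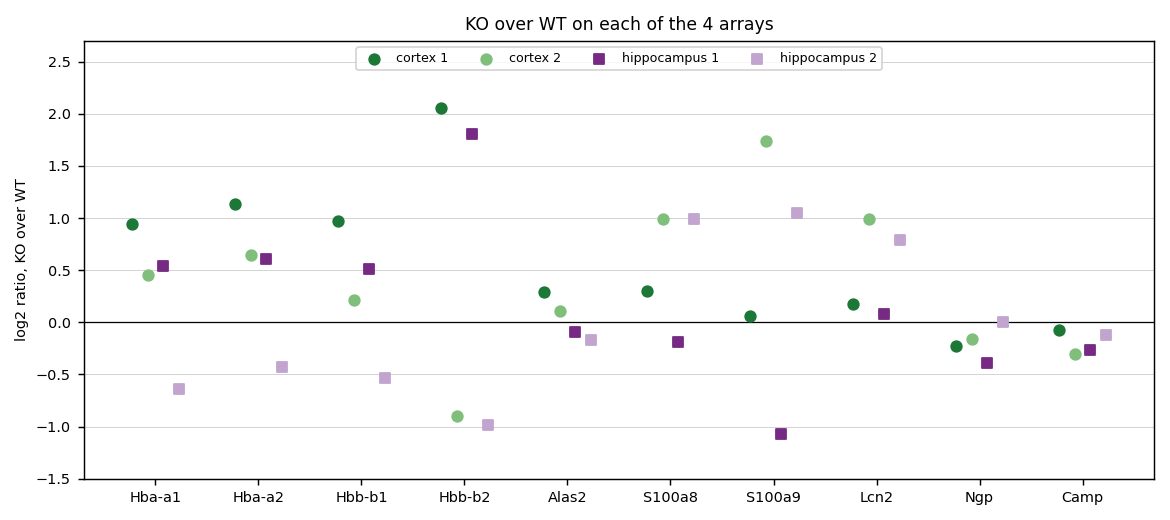
Log2 ratio of KO over WT (y axis) on each of the 4 arrays for the 7 genes and for Hba-a2, Hbb-b2 and Lcn2 (x axis); circles are cortex, squares hippocampus, dark symbols replicate 1 and pale symbols replicate 2. Hba-a1, Hba-a2 and Hbb-b1 are lowest on hippocampus array 2, S100a9 is below 0 on hippocampus array 1 alone, and Hbb-b2 changes sign with the replicate number in both tissues.

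Averaged over both tissues, none of the 6 members passed, whereas 1828 genes did (10.9%), 1195 of them higher and 633 lower in KO. With median centring in place of loess 45.1% of calls were higher in KO, against 65.4% here. Keeping outlying local backgrounds left 3 calls. The members' adjusted p ran from 0.115 for Camp to 0.681 for Alas2 (limma). With the number shared by the tissues as a replicate block, Hbb-b1, S100a8 and S100a9 passed, but the labels do not say what the numbers share. The log2 differences were 0.32 ± 0.21 for Hba-a1, 0.29 ± 0.22 for Hbb-b1, 0.52 ± 0.23 for S100a8 and 0.45 ± 0.45 for S100a9. Leaving out 1 array at a time, they ran from 0.030 to 0.62 for Hba-a1, 0.030 to 0.55 for Hbb-b1, 0.23 to 0.82 for S100a8 and -0.086 to 0.98 for S100a9. The lowest globin values came without hippocampus replicate 1, and the lowest S100a8 value without hippocampus replicate 2. Camp had the only unadjusted p under 0.05 among the 6, against 33.8% of all genes, with a log2 difference of -0.19 ± 0.06. It was the only member below 0 on all 4 arrays (-0.07, -0.31, -0.27 and -0.12), as were 17.6% of all genes, though its second probe gave 0.02 on cortex array 1. No member was above 0 on all 4 arrays, against 28.1% of all genes.

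The difference between the cortex and hippocampus effects, in which an equal dye bias cancels, passed for no member and for no gene at all (0%, limma), with 750 genes (4.47%) at an unadjusted p under 0.05. Hba-a1 differed by 0.75 ± 0.43 on the log2 scale and Hbb-b1 by 0.60 ± 0.43. Over all alternatives these differences ran from 0.16 to 1.34 for Hba-a1 and from 0.080 to 1.12 for Hbb-b1. Alas2, with 0.33 ± 0.11, was the 1 member with an unadjusted p under 0.05, and its adjusted p was 0.99995. The limit given for Alas2 in cortex holds here too.

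Cortex was then compared with hippocampus within each genotype, and so within 1 dye. In WT none of the 6 members passed, against 2501 genes (14.9%), and none had an unadjusted p under 0.05, against 28.9% of genes (limma, single-channel fit). Hba-a1 was 1.20-fold in cortex over hippocampus (0.26 ± 0.38) and Hbb-b1 1.26-fold (0.33 ± 0.42). Both cortex levels of Hba-a1 and Hbb-b1 lay above both hippocampus levels, as in 24.8% of genes. S100a9 lay lower in cortex with no overlap, as did 31% of genes, at -0.65 ± 0.71, though WT cortex replicate 2 was not well above background.

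In KO none of the 6 passed, against 2485 genes (14.8%). An unadjusted p under 0.05 was seen for 2 of them, Hba-a1 and Alas2, against 28.3% of genes. Hba-a1 was 2.01-fold in cortex over hippocampus (1.01 ± 0.38, 95% interval 0.10 to 1.92, adjusted p = 0.138, limma) and Hbb-b1 1.91-fold (0.94 ± 0.42, adjusted p = 0.202, limma). Without hippocampus replicate 1 both passed, at 1.64 (adjusted p = 0.0235, limma) and 1.62 (adjusted p = 0.0366, limma), with KO hippocampus replicate 2 then the lone sample of its group and assumed to vary like the other groups. Over all alternatives the adjusted p of Hba-a1 ran from 0.0156 to 0.559. Hba-a1 and Alas2 had both KO cortex levels above both KO hippocampus levels, as did 28.8% of genes, and no member had them below, against 31.3%. Alas2 entered the tests only through KO cortex, where it was highest. Its part in this count and its unadjusted p here support nothing.

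Across the 8 samples, with each genotype centred on its own mean, the globin levels varied together. Hba-a1 and Hbb-b1 had r = 0.985 and Spearman's rho = 0.810, and r was 0.830 without KO hippocampus replicate 2 and KO cortex replicate 1, the samples farthest from the median. Over all genes tested, the 2 most like Hbb-b1 were Hba-a2 (r = 0.985) and Hba-a1, followed by Gm5215 (r = 0.967), Tubgcp6, Rabl2, Anp32a, Clec2l and Paqr4 (r = 0.954). These are descriptions over samples that share arrays and pairs of a number, and no p is given because the genes were picked for their likeness.

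S100a8 ranked seventh among the genes most like S100a9, with r = 0.935 and rho = 0.952, and r = 0.911 without KO hippocampus replicate 1 and WT cortex replicate 2. The 10 most alike were Zbtb46 (r = 0.959), Cirbp, Mapk8ip3, Exosc1, Sart1, Ndufc2, S100a8, 4930570B17Rik, Tmem146 and Ap1m1, in that order. No other gene of the neutrophil list was among them. Hbb-b1 and S100a9 had r = -0.656 and rho = -0.786, and r = -0.575 without KO hippocampus replicate 2 and KO cortex replicate 1. Hba-a1 and S100a9 had r = -0.566 and rho = -0.405, and r = -0.242 without those 2 samples. Without KO hippocampus replicate 1 and WT cortex replicate 2 instead, r with S100a9 was -0.892 for Hbb-b1 and -0.881 for Hba-a1.

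**Figure D3:**
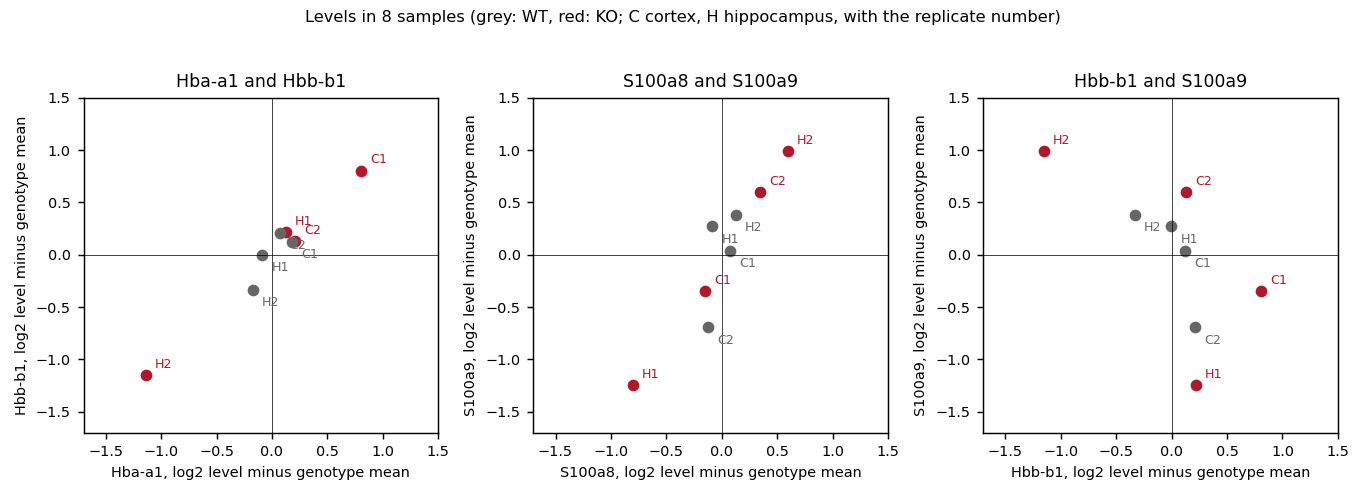
Log2 level minus the mean of the genotype in each of the 8 samples, for Hba-a1 against Hbb-b1, S100a8 against S100a9 and Hbb-b1 against S100a9; grey points are WT, red points KO, C cortex and H hippocampus with the replicate number. KO hippocampus replicate 2 lies at -1.14 for Hba-a1 and -1.15 for Hbb-b1 but at 0.99 for S100a9.

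The stretches before the start sites of the 4 members that varied in pairs are shown for comparison, 250 bases each, from RefSeq (GRCm38.p6), 5′ to 3′ on the strand of the gene. Promoters were listed under the array symbol for 6 of the 7 members, and for Hbb-b1 the one of Hbb-bt was taken. Capitals mark every match on either strand of 4 motifs. The core of a GATA factor site was searched as GATAA. The CCAAT box was searched under those letters. The box read by KLF factors in globin promoters was searched as CACCC. The TATA box was searched as TATAA. None of these motifs can share its whole match with another, though neighbours may touch.
Hba-a1, chr11:32283422-32283671, plus strand: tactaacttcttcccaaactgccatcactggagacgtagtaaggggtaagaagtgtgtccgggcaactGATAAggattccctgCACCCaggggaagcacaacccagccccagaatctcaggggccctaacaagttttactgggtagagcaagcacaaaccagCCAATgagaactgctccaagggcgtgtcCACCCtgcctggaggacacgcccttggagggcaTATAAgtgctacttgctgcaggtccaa
Hbb-bt, chr7:103813924-103814173, minus strand: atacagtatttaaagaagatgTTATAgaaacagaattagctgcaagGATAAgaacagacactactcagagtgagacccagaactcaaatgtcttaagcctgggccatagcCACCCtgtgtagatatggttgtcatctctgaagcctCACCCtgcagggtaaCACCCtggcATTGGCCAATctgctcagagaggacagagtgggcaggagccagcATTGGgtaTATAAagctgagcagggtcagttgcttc
S100a8, chr3:90668821-90669070, plus strand: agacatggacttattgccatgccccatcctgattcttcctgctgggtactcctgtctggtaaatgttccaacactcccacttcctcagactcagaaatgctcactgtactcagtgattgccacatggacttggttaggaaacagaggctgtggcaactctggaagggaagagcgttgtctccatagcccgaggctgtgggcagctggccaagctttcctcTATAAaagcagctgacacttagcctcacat
S100a9, chr3:90695722-90695971, minus strand: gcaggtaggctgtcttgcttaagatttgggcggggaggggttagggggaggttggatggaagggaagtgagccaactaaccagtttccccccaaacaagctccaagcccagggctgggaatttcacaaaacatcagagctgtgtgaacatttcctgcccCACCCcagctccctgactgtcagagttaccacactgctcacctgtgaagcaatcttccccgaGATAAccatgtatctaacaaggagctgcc

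Both globin stretches held all 4 motifs, with 1 GATAA each at 182 (Hba-a1) and 204 bases (Hbb-bt) before the start and a TATAA at 27 and 28 bases. Hbb-bt held 3 matches of the CCAAT box and 3 of the KLF box, and Hba-a1 1 and 2. S100a8 held a TATAA at 30 bases and none of the other motifs, and S100a9 held 1 GATA core and 1 KLF box. Of 32851 promoters of the same length, 22.6% held the GATA core, 33.8% the CCAAT box, 52% the KLF box and 22.8% the TATA box, so each match alone is common. The stretches of Hba-a1 and Hba-a2 were identical over the 247 bases at which they could be aligned. A match is a description of letters and was not tested as a binding site.

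Of 35 genes of the red cell list on the array, 19 could be tested, the rest being too dim, and these include the 4 adult globin genes. In the mean of both tissues 2 were higher and 1 lower in KO, where 7.12% of all genes were called higher and 3.77% lower. The median log2 difference was 0.05 for the 19 genes and 0.03 for the 15 without the globins, against 0.03 over all genes. The 3 were Hemgn, an erythroid nuclear factor (0.45 ± 0.06, adjusted p = 0.0309, limma), Mkrn1, a ubiquitin ligase found in many tissues (0.24 ± 0.04, adjusted p = 0.0425, limma), and Slc25a37, the mitochondrial iron importer mitoferrin (-0.27 ± 0.05, adjusted p = 0.0423, limma). Slc4a1, the anion exchanger of the red cell membrane, was well above background in the 4 KO samples alone. Its ratios were 0.28, 0.41, -0.09 and 0.21 on cortex arrays 1 and 2 and hippocampus arrays 1 and 2. By array, the median ratio was 0.21, 0.21, -0.0030 and -0.10 in the same order for the list, and 0.08, 0.11, -0.09 and -0.05 without the globins. The log2 of the summed levels over the list, globins included, was 15.57 to 15.61 in WT cortex and 15.74 to 15.77 in KO cortex. It was 15.56 to 15.57 in WT hippocampus and 15.56 to 15.62 in KO hippocampus. Bright genes of the list weigh most in such a sum, and the part of the globins in it was not computed.

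Between tissues, 2 red cell genes were higher and 2 lower in WT cortex, and 3 were higher and 2 lower in KO cortex, of 19 tested in each, against 14.9% and 14.8% of all genes called in either direction. Slc25a37 was higher in cortex in both (0.59 and 0.78), as was the erythropoietin receptor gene Epor (0.73 and 0.52), and the beta spectrin gene Spnb1 was lower in both (-0.42 each). Spnb1 is expressed in neurons as well as in red cells. The other gene lower in WT cortex was Slc4a1, which no WT sample had well above background. Of the 18 haem synthesis and breakdown genes tested, none passed for KO over WT in either tissue or in the mean, and 6 had an unadjusted p under 0.05 in the mean, against 33.8% of all genes (limma). Their median there was -0.05.

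Of 34 neutrophil genes on the array, 16 could be tested and 1, Elane, passed in the mean of both tissues. Over all genes, 7.12% were called higher there and 3.77% lower. Elane encodes neutrophil elastase and was 0.48 ± 0.07 higher in KO on the log2 scale (adjusted p = 0.0315, limma), with ratios of 0.37, 0.52, 0.39 and 0.65. It was well above background in 5 of the 8 samples. For 7 of the 16, no more than 4 samples had a spot well above background, so some could enter the tests through the brighter KO channel alone and the list's values are a description that supports nothing. By array the list median was 0.04 and 0.27 in cortex and 0.06 and 0.38 in hippocampus, higher on both arrays of number 2. Mpo, the myeloperoxidase gene, had ratios of -0.06, 0.71, 0.05 and 0.57 and did not pass (adjusted p = 0.231, limma). In KO 15 to 18 of the 34 genes were well above background and in WT 7 to 9, beside the difference in channel brightness given above.

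**Figure D4:**
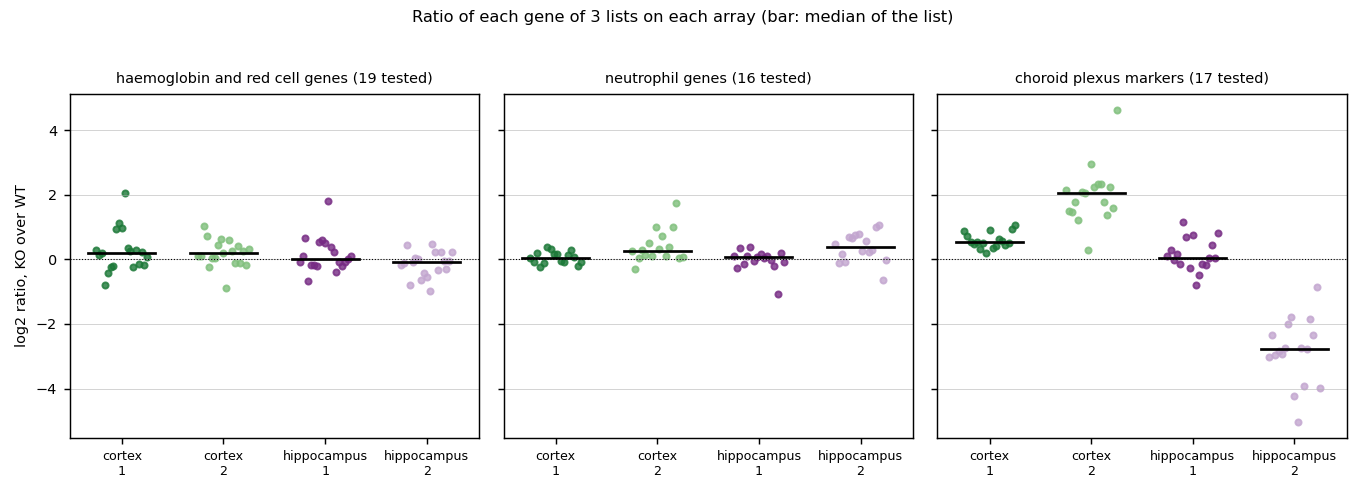
Log2 ratio of KO over WT (y axis) of each tested gene of the red cell, neutrophil and choroid plexus lists on the 4 arrays (x axis); points are genes and bars the list median. The neutrophil median is higher on cortex array 2 (0.27) and hippocampus array 2 (0.38) than on arrays 1, and the choroid plexus median ranges from 2.06 to -2.77.

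Platelet and lymphocyte genes gave a further view of blood. Of 10 platelet genes tested, none was higher and 3 were lower in KO in the mean of both tissues, where 3.77% of all genes were called lower. They included Itga2b (-0.34 ± 0.06), which with its partner binds fibrinogen, and Gp9 (-0.29 ± 0.04), a subunit of the von Willebrand factor receptor. Itga2b was well above background in 3 samples. Pf4, the platelet factor 4 gene, which stands in the leptomeningeal and macrophage list as well, gave 0.61 and 0.02 in cortex and -0.32 and -0.85 in hippocampus, and did not pass (adjusted p = 0.522, limma). The median of that second list was 0.34 and 0.0023 in cortex and -0.65 and -1.23 in hippocampus. Of 9 lymphocyte genes tested, none passed and 4 had an unadjusted p under 0.05, against 33.8% of all genes (limma), with a median of -0.0087.

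Cells of the vessel wall and resident immune cells were read beside the blood genes. Of 16 endothelial and pericyte markers, 1 was lower in KO in the mean of both tissues, the tight junction gene Cldn5 (-0.59 ± 0.07, adjusted p = 0.0279, limma), and 14 lay below 0, as did 43.4% of all genes. Of 18 microglia markers 1 was higher and 3 lower, and of 14 leptomeningeal and macrophage markers 6 were lower, against 7.12% of all genes called higher and 3.77% lower. On hippocampus array 2, which had the lowest globin ratios, the endothelial median was -0.42. The log2 of the summed endothelial levels was 15.62 to 15.65 in KO hippocampus and 15.75 to 15.89 in KO cortex. In WT it was 15.89 to 16.15 in hippocampus and 15.92 to 15.95 in cortex. The part of these cells in the blood gene values was not tested.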

How the data were processed

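Total RNA (0.5 µg per sample) was amplified and labelled with QuickAmp in the dyes given above, per the labels' protocols. The deposited scanner files hold intensities from Feature Extraction 10.1.1.1 with mm9 positions, per the file headers. The files of a WT and a KO sample of the same tissue and number were identical, giving 8 samples on 4 arrays. The deposited value table holds log2 values made by the authors and served as an alternative. The step behind those log2 values is not given in the sources used here.

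Signals were read in R 4.3.3 and background was corrected with normexp (offset 50), with outlying local backgrounds (up to 166 spots in a channel) replaced by the array median. Loess with a span of 0.3 normalised each array, the 1377 control spots having no weight, and Aquantile was added for levels. The brightest probe represented a gene, and a gene was kept where both spots of any 1 group were well above background. KO over WT was tested with limma 3.58.1 on 4 log ratios (2 residual and 2.62 prior degrees of freedom). Tissues were compared on single channels (intraspot correlation 0.189). The fits were tested on simulated data. The number of arrays limits the precision. Errors are SE of the fit.

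The members and gene lists were chosen with earlier results of these data known. Named genes were all members, Tet1, for each list the genes past the threshold (at most 4 per comparison) or otherwise those with the largest change in the mean of both tissues, and the 10 genes most like Hbb-b1 and S100a9. Some of these are not reported here. Hba-a2, Hbb-b2, Lcn2, Slc4a1, Mpo, Pf4, Ahsp and the embryonic globins were added after their values were seen.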

Additional observations from a re-analysis of the deposited data

Results flagged for a closer look

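Alas2 was singled out because its ratio of KO over WT was above 0 on both cortex arrays (0.29 and 0.11) and below 0 on both hippocampus arrays (-0.10 and -0.17). The difference between the tissues was 0.33 on the log2 scale, with an SE of 0.11, and did not pass over all genes (adjusted p = 0.99995, limma). Alas2 was well above background in 3 of 8 samples, all KO, and entered the tests only through KO cortex, where it was highest.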

How the results depend on the processing

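No member was called in the 6 comparisons as reported. Median centring instead of loess called 2 members in cortex, 2 in hippocampus and 2 in the mean of both tissues (Alas2 and Camp), with Alas2 at -1.17 in cortex and -1.30 in the mean, and turned S100a8 to -0.23 in cortex, -0.51 in hippocampus and -0.37 in the mean. It also raised the genes called from 10 to 7371 in cortex, from 3 to 8374 in hippocampus and from 1828 to 10525 in the mean. With the number shared by the tissues as a replicate block, 3 members were called in the mean of both tissues (Hbb-b1, S100a8 and S100a9) and 2 between KO tissues (Hba-a1 and Hbb-b1). Genes called under this block rose from 10 to 153 in cortex and from 3 to 430 in hippocampus. The labels do not say what the numbers share, and differences between replicates 1 and 2 in cortex and hippocampus correlated across genes at -0.0761 in WT and 0.243 in KO. Leaving out each array called 0 to 2 members between KO tissues and 0 in the other comparisons.

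The replacement of outlying local backgrounds was chosen when gene counts were already known. Keeping these backgrounds left 3 of 1828 genes called in the mean and 0 of 10 in cortex. It gave -0.046 for Alas2 and 0.11 for S100a9 (mean and hippocampus), -0.081 and -0.28 for S100a9 and S100a8 between KO tissues, and -0.25 for S100a8 in cortex minus hippocampus. Feature Extraction's processed signals called 139 genes in cortex, 382 in hippocampus and 1214 in the mean, and turned Camp to -0.022 and -0.038 between tissues in KO and WT and Alas2 to 0.13 in WT. The authors' value table called 22 and 16 genes and turned Alas2 (0.0074), Hbb-b1 (0.045) and S100a9 (0.069) in hippocampus and S100a8 (0.027) and Alas2 (0.039) between WT tissues. The mean of the probes turned Camp to -0.0097 between WT tissues. Single-channel fitting without an array correlation called 293 and 451 genes, no filter 3366 in the mean, and a strict filter 995. Both filters, the mean of the probes and an intensity trend with robust estimation called 17 to 40 genes in cortex and 2 to 60 in hippocampus.

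Leaving out each array gave 0 genes called in cortex and 0 to 1 in hippocampus and in the mean, and without a cortex array 646 to 753 between tissues (2485 and 2501 with all arrays). It moved hippocampus values from -0.64 to 0.54 for Hba-a1, -0.53 to 0.51 for Hbb-b1, -0.19 to 0.99 for S100a8 and -1.07 to 1.05 for S100a9. In the mean Alas2 ranged from -0.010 to 0.078 and S100a9 from -0.086 to 0.98. In cortex minus hippocampus Camp ranged from -0.11 to 0.12, S100a8 from -0.35 to 0.84 and S100a9 from -0.15 to 1.97. Between KO tissues Camp ranged from -0.34 to 0.41, S100a8 from -0.50 to 0.90 and S100a9 from -0.86 to 1.37, and between WT tissues Camp from -0.27 to 0.33 and S100a8 from -0.15 to 0.063. The causes were not tested. Of 486 single-gene values under alternatives, 40 reversed and 13 were called, 2 of them among the reversed, and 435 did neither. The dimmer WT channel limits Alas2, S100a8, Ngp and Lcn2.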
